A study of Caenorhabditis elegans with 2 samples.

Results

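The microRNA genes of Caenorhabditis elegans number 261 in the Ensembl annotation of the WBcel235 genome, out of 46926 genes of all types. They were examined here for sites of HMG-1.1, a chromatin protein of the high mobility group box family, and 43 of the 261 had a site at their start. All genes of the biotype miRNA were taken. A gene was called marked when the summit of a peak, its highest point as the authors gave it, lay within 500 bp of the annotated start on either side. The peaks were those of the list that the authors call conservative, which was called on both samples together and kept peaks by their IDR, the irreproducible discovery rate, a measure of how well peak ranks repeat. For most of these genes the annotated start is the 5' end of the precursor hairpin (median annotated length 95 bp), not the start of the longer primary transcript. The measure therefore places HMG-1.1 relative to the hairpin.

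The worms were of strain RW12311, which carries TY1::EGFP::3xFLAG::hmg-1.1, a CRISPR insertion at the endogenous hmg-1.1 gene. Whole L4 larvae, the last larval stage, were collected at 48 hours after synchronisation by bleaching and starvation of L1 larvae. Chromatin was fragmented by sonication, and the tagged protein was pulled down with an anti-GFP antibody and sequenced. There were 2 biological replicates of 1 group, both with the tagged gene, so no condition can be compared, and a control experiment that the labels name is not analysed here. Since whole animals were used, a weak peak from many cells and a strong peak from few cells cannot be told apart. The conservative list held 4277 peaks, and the thresholded lists of the replicates held 2613 and 3082. Read depth is unknown. The signal quoted below is the authors' enrichment value for a peak, and its scale is not stated.

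MicroRNAs are short RNAs that guide Argonaute proteins to messenger RNAs and lower the output of their targets. A primary transcript is cut to a hairpin by Drosha and its partner Pasha, and the hairpin is cut by Dicer to the mature strand. The seed, bases 2 to 8 of the mature strand, does most of the pairing with targets, and microRNAs with a common seed form a family. In the worm, lin-4 and let-7 were found as heterochronic genes, which time the divisions of larval cells. HMG box proteins bind the minor groove and bend DNA, and those of the HMGB type do so with little sequence preference.

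The families on which the results turn are shown first. Mature sequences were read from the RefSeq annotation and genome of the same build (WBcel235), which matched all 261 genes and gave a mature strand for 260. Each is written 5' to 3' with the seed in capitals. The let-7 family acts at successive larval stages. Its members mir-48 and mir-241 were marked, while mir-84 was not and let-7 itself was not by the annotated start of its gene. The fifth member, mir-795, was not marked and its sequence is not shown.
let-7: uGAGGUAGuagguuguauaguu
mir-48: uGAGGUAGgcucaguagaugcga
mir-84: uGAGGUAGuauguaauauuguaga
mir-241: uGAGGUAGgugcgagaaauga

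The lin-4 family is a pair with a common seed, and lin-4 was marked and mir-237 was not.
lin-4: uCCCUGAGaccucaaguguga
mir-237: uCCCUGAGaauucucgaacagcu

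The mir-51 family had 5 of its 6 members marked, all but mir-51. Its common strand is the 5' arm in mir-51, mir-52 and mir-53 and the 3' arm in mir-54, mir-55 and mir-56.
mir-51: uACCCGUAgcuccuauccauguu
mir-52: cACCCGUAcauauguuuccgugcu
mir-53: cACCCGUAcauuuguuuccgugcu
mir-54: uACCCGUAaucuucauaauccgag
mir-55: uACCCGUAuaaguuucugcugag
mir-56: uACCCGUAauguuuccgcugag

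The mir-35 family, needed in the embryo, had 5 of its 8 members marked: mir-35, mir-36, mir-37, mir-38 and mir-42. Of the 8, 4 are shown, and of these mir-41 was not marked.
mir-35: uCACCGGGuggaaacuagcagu
mir-38: uCACCGGGagaaaaacuggagu
mir-41: uCACCGGGugaaaaaucaccua
mir-42: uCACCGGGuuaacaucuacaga

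The bantam-related family is shown for mir-80 and mir-82, which were marked, and for mir-81 and mir-58b, which were not. Of the 6 genes with this exact seed these were the 2 marked. The last line is mir-58a, whose seed differs from that of the others in its last base and which was marked.
mir-80: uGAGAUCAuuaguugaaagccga
mir-81: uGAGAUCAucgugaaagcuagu
mir-82: uGAGAUCAucgugaaagccagu
mir-58b: aGAGAUCAaccauugagauccaa
mir-58a: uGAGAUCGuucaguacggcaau

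A further common seed joins mir-90 and mir-62, both marked, with mir-50, which was not.
mir-90: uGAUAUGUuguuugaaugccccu
mir-62: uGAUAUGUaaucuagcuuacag

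Shown last are mir-5549, mir-5595 and the mir-8186 pair, 4 of the 15 genes with the highest signal. The mir-8186-1 and mir-8186-2 hairpins lie on opposite strands of the same bases and give the same mature sequence.
mir-5549: cUUGUGAAauuaacgugagu
mir-5595: uCUCUUUUuucucgcaugccaucu
mir-8186-1: aCUGCUCAaaggacuuugcugc
mir-8186-2: aCUGCUCAaaggacuuugcugc

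Across all mature strands 46 seeds were shared by at least 2 genes. Of these, 17 seeds had at least 1 marked gene and 8 had at least 2. Every gene was marked for 2 seeds, and both belong to the mir-8186 pair, which shares 1 peak. The remaining seed with 2 marked genes joins mir-2 and mir-43, with mir-250 and mir-797 unmarked.

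Of the 261 microRNA genes, 43 were marked in the conservative list, which is 16.5% (95% Wilson interval 12.5 to 21.5). The same rule marked 8.18% of all genes, 11.7% of all genes but the piRNA genes, which are very many and rarely marked, and 9.78% of protein-coding genes. In the thresholded list of replicate 1, 32 microRNA genes (12.3%) were marked, against 5.34% of all genes and 6.05% of protein-coding genes. In that of replicate 2, 33 (12.6%) were marked, against 6.25% of all genes and 7.3% of protein-coding genes. The share per replicate was 12.5% ± 0.271 (SD, n = 2). The microRNA share was above the share of all genes and of protein-coding genes in each of the 3 lists. The other non-coding genes were not counted apart. Without piRNA genes, their share in the conservative list must lie above 11.7%, since protein-coding genes in the same pool stood at 9.78%. A higher share than that of protein-coding genes is therefore not particular to microRNA genes. The 11.7% is only a lower bound, from 3678 of 31563 genes, of which protein-coding genes made up 1954 of 19985. The microRNA share of 16.5% was therefore not shown to stand above that of the other non-coding genes. No test was made of this or of any other difference between gene classes, since genes are not replicates, and the intervals cover counting error over genes only.

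The 43 genes are not 43 separate sites. They lay by 41 distinct summits in 39 regions of touching peaks, and only 35 summits served as the strongest of a gene, since neighbouring hairpins share peaks. With clusters counted once there were 227 microRNA loci, and 36 of them had a marked gene. Of the 43 genes, 30 had their strongest peak overlapped by a peak in the thresholded lists of both replicates. The genes mir-2 and mir-4920 had such a peak in replicate 2 only, and 11 genes had it in neither list. The 30 genes had signals from 76.2 to 385 (median 176), and the 11 genes had signals from 63.3 to 81.4 (median 67.0). The 11 are mir-35, mir-36, mir-37, mir-38, mir-42, mir-43, mir-44, mir-77, mir-82, mir-235 and mir-4934. The q-value of the strongest peak, also the authors' value, was above 0.05 for 10 of the 43 genes, since the list was selected on IDR.

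**Figure D1:**
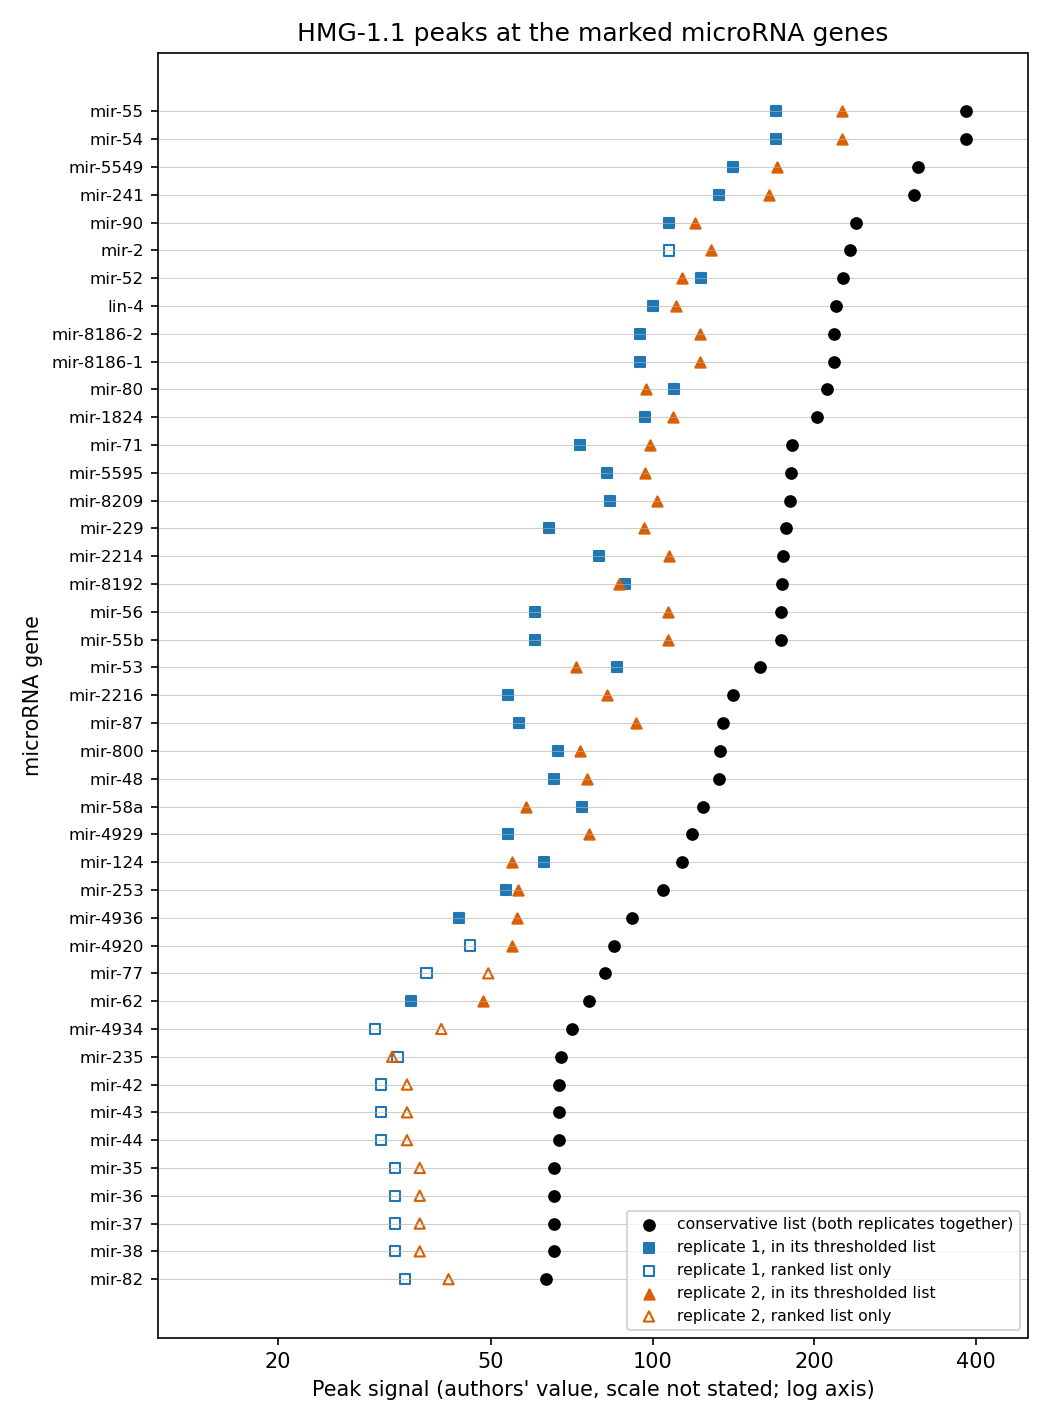
Peak signal (log axis, authors' value) at each of the 43 marked microRNA genes, for the strongest conservative peak within 500 bp (black circles) and the overlapping peak of replicate 1 (squares) and replicate 2 (triangles), filled where the peak is in the thresholded list of that replicate and open where it is in the ranked list only. The genes run from mir-55 and mir-54 at 385 to mir-82 at 63.3, and the 11 genes with both replicate symbols open all have conservative signals of 81.4 or less.

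Peaks at the marked genes ranged from weak to strong within the list. Their median signal was 142, or 159 with each peak counted once, against 110.5 for all peaks of the conservative list, which run from 2.04 to 1240.3. The best rank among the 4277 peaks was 154. In replicate 1 the median over the 30 genes with a listed peak was 80.9 against 72.5 for all its peaks, and in replicate 2 the median over 32 genes was 98.1 against 77.2. The signal was higher in replicate 2 than in replicate 1 for 36 of the 43 genes. The authors' scaling of the replicates is not known, so this is no difference in binding.

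The strongest peak at a microRNA gene lay in the mir-54 to mir-56 cluster, antisense to F09A5.3. Its summit (chromosome X, peak 13145122 to 13145554, ce11) had a signal of 385, with 170.0 in replicate 1 and 226 in replicate 2. It lay at -279 bp from mir-54 and -449 bp from mir-55, where negative values are upstream along the strand of the hairpin. A second peak downstream of mir-56 (271 bp, signal 173) had 60.3 in replicate 1 and 107 in replicate 2. It also lay at -314 bp from mir-55b, a hairpin annotated on the opposite strand to mir-55 over nearly the same bases. Both replicates thus held a peak on each side of the cluster, and the upstream peak was the stronger in both.

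The next gene, mir-5549 (chromosome III, 6971976 to 6972085, minus strand), had its summit at -4 bp with a signal of 313, 141 in replicate 1 and 171 in replicate 2. The same summit lay within 500 bp of the starts of eef-1A.1, which encodes a translation elongation factor, and of rfc-4, which encodes a clamp loader subunit. It cannot be told which of the 3 starts the site belongs to. mir-241 (chromosome V, 14366188 to 14366283, minus strand) had its summit at -452 bp with a signal of 307, 133 in replicate 1 and 165 in replicate 2. No protein-coding start lay within 500 bp of that summit.

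The marked genes next in signal, mir-90, mir-2 and mir-52, lay between 227 and 239.9. mir-90, in an intron of K01F9.2, had its summit at -312 bp, with 107 in replicate 1 and 119.97 in replicate 2. mir-2, in an intron of ppfr-1, had its summit at -306 bp, and its 129 in replicate 2 came from the thresholded list while its 107 in replicate 1 came from the ranked list only. That makes mir-2 the strongest marked gene that was missing from a replicate's list. mir-52, of the mir-51 family and intergenic (chromosome IV, 14034008 to 14034107, plus strand), had its strongest summit at -279 bp with 123 in replicate 1 and 114 in replicate 2. A weaker conservative summit lay nearer to its hairpin, at -79 bp.

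lin-4, which represses lin-14 and lin-28 early in larval life, lies in an intron of F59G1.4 (chromosome II, 5902254 to 5902347, plus strand). Its summit lay at -377 bp with a signal of 219, 100.4 in replicate 1 and 111 in replicate 2. The start of the host gene lay 6084 bp away and had no summit within 500 bp. The peak at lin-4 therefore stood apart from the host's annotated start.

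The mir-8186-2 and mir-8186-1 hairpins share a peak of signal 218, with 94.6 in replicate 1 and 123 in replicate 2. Because they overlap on opposite strands, the same summit is upstream of the former (-296 bp) and downstream of the latter (355 bp). mir-80 (chromosome III, 8865270 to 8865367, minus strand) had its summit at -195 bp with a signal of 211, and it was among the genes with the higher value in replicate 1, 109.6 against 97.4. mir-1824 had a signal of 202 (96.8 and 109 in replicates 1 and 2) at 432 bp downstream of its start, where the starts of Y87G2A.1 and Y87G2A.18 also lay within 500 bp.

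The last of the 15 genes with the highest signal lay close together, between 180.7 and 181.7. mir-71, known for a role in lifespan and in recovery from larval arrest, had 73.4 and 98.8 in replicates 1 and 2 and a summit at -378 bp. It lies in the same host gene as mir-2, ppfr-1, each with a peak of its own. mir-5595, antisense to nurf-1, had 82.2 and 96.8 with a summit at -125 bp, and mir-8209 had 83.5 and 102 with a summit at 104 bp. The value in replicate 2 was the higher for each of these genes.

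The other marked genes with a peak in both replicates' lists had conservative signals from 178 down to 76.2. In falling order they were mir-229, mir-2214, mir-8192, mir-56, mir-55b, mir-53, mir-2216, mir-87, mir-800, mir-48, mir-58a, mir-4929, mir-124, mir-253, mir-4936 and mir-62. Among them mir-124, a microRNA of sensory neurons, had a signal of 113 at -414 bp in an intron of the channel gene trpa-1, with 62.8 in replicate 1 and 54.6 in replicate 2. mir-62, a mirtron whose hairpin is a whole short intron, had the summit farthest upstream, at -494 bp. mir-4920 was in replicate 2 only, with a conservative signal of 84.9, 54.7 in replicate 2 and 45.6 in the ranked list of replicate 1.

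Among the heterochronic microRNAs the call for let-7 depended on which start was used. The annotated let-7 gene is a primary transcript of 1732 bp, and its start lies 1050 bp upstream of the hairpin. A conservative peak (chromosome X, 14744494 to 14744869, signal 127, rank 1770) had its summit 639 bp downstream of that start, outside the 500 bp of the rule. The same summit lay at -411 bp from the hairpin, and at -202 and -386 bp from the starts of the annotated shorter primary transcripts. In replicate 2 the peak was in the thresholded list (signal 79.2), and in replicate 1 it was in the ranked list only (signal 52.9, rank 2187 of 50642). Measured from the hairpin, as for nearly all other genes, let-7 would be marked. Only 8 genes had an annotated span that differs from the RefSeq hairpin, and with the hairpin's 5' end as the start for all, an alternative chosen after seeing the data, the count rose from 43 to 44, with let-7 as the gain.

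Of the let-7 relatives, mir-48 and mir-241 lie on the same strand of chromosome V with separate peaks. The mir-48 summit lay at -170 bp, between the hairpins, with a signal of 133, 65.5 in replicate 1 and 75.6 in replicate 2. That is below the 307 of mir-241 in the conservative list, and each replicate has the same order. mir-84 had no conservative summit nearer than -2330 bp, although that distant peak was strong (306) and both ranked lists held weak peaks near its start (34.7 at -372 bp in replicate 1 and 31.1 at -369 bp in replicate 2). mir-795 had its nearest summit at -17174 bp. mir-237, the relative of lin-4, had its nearest summit at 585 bp, just outside the rule, with a signal of 100.2. Of the 7 genes in both families, 3 were therefore marked, and let-7 and mir-237 had a summit between 500 and 1000 bp from the annotated start.

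**Figure D2:**
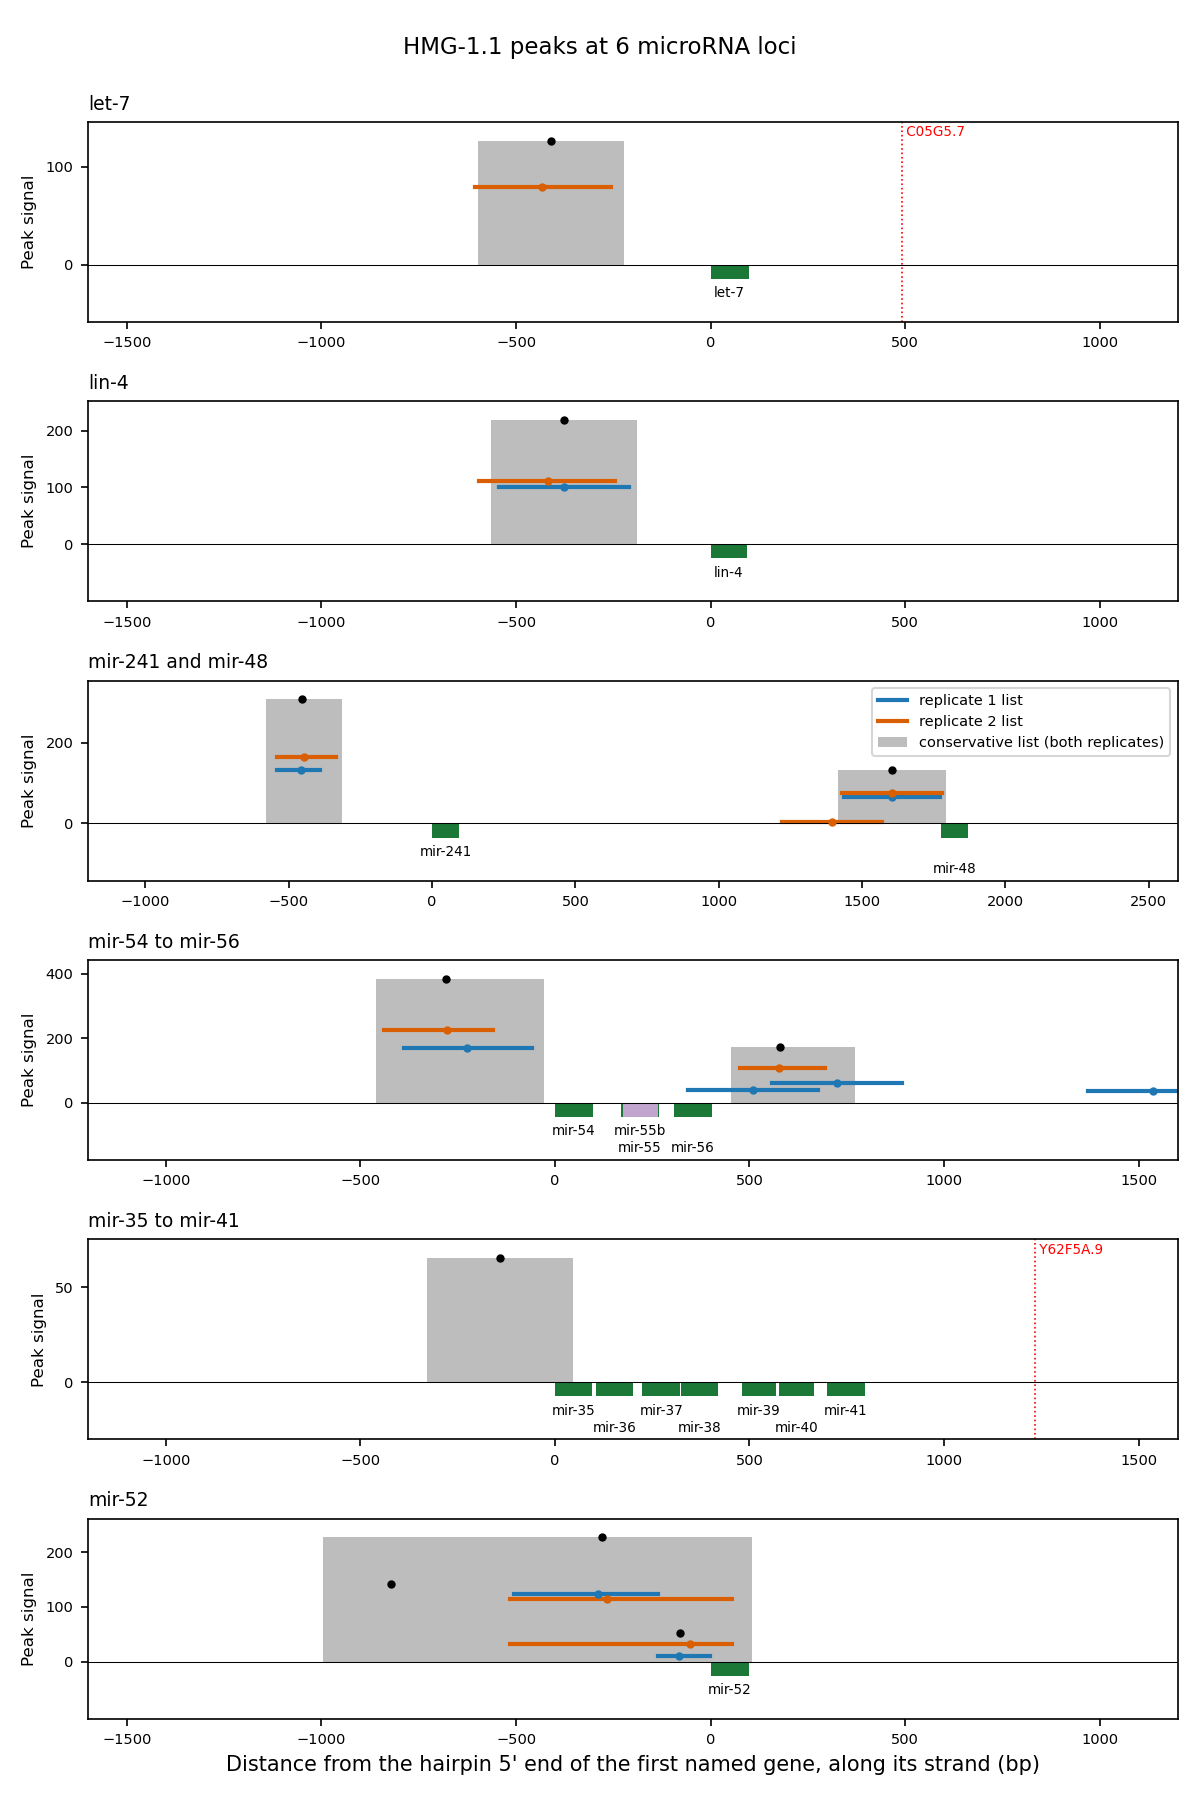
Peaks at 6 microRNA loci, with distance from the hairpin 5' end of the first named gene along its strand (bp) on the horizontal axis and peak signal on the vertical axis. Grey blocks are conservative peaks, blue and orange lines the thresholded peaks of replicates 1 and 2, dots summits, green bars hairpins on that strand, the violet bar a hairpin on the other strand, and red dotted lines protein-coding starts. The let-7 peak has a line for replicate 2 only, the mir-35 peak has no line, and the mir-54 to mir-56 cluster has a peak on either side.

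The marked members of the mir-51 family lay by 4 sites: mir-52, mir-53, and the sites upstream of mir-54 and downstream of mir-56. mir-53 had a signal of 159 at -182 bp, with 85.9 in replicate 1 and 72.2 in replicate 2. The unmarked member mir-51 lies on the same strand beyond mir-53, and its nearest conservative summit, at -1761 bp, is the one at mir-53. Weaker peaks lay close to mir-51 in both ranked lists, with 44.6 at 127 bp in replicate 1 and 43.4 at -12 bp in replicate 2. All 4 sites were in the thresholded lists of both replicates.

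The mir-35 family was marked by 2 weak peaks. The mir-35 to mir-41 cluster (chromosome II, 11537608 to 11538404, plus strand) had a single summit at -141 bp from mir-35, with a signal of 65.4, 33.1 in replicate 1 and 36.8 in replicate 2. It lay within 500 bp of mir-35, mir-36, mir-37 and mir-38, and at -622 bp or more from mir-39, mir-40 and mir-41. The mir-42 to mir-44 cluster had its summit at -214 bp from mir-42, with a signal of 67.0, 31.2 in replicate 1 and 34.9 in replicate 2. Neither peak was in a replicate's thresholded list, so these 7 marked genes rest on the conservative list alone.

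The bantam-related genes differed widely in signal. mir-58a, an abundant microRNA of the larva, lies in an intron of Y67D8A.2 and had a signal of 124 at -257 bp, with 73.8 in replicate 1 and 58.12 in replicate 2. mir-82 had the lowest signal of all marked genes, 63.3 at -127 bp, and was in neither replicate's list, against 211 for mir-80. mir-81 had no ranked peak within 500 bp in either replicate, and its nearest conservative summit lay 1571 bp downstream.

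Of 62 microRNAs listed for a published role or an established family, 24 (38.7%) were marked, beside 16.5% of all microRNA genes and 8.18% of all genes. The list was chosen with earlier results of these data known, so its higher share is a description only. The 24 share 18 strongest summits, since the list holds whole clusters by 1 peak. Of the 24, 15 had a peak in the thresholded list of replicate 1 and 15 in that of replicate 2, beside 30 and 32 of all 43 marked genes. Unmarked were mir-1, a microRNA of muscle (nearest summit at -2468 bp), and lsy-6, which sets the left-right difference of a pair of taste neurons (nearest at 30454 bp). mir-34, which acts in stress responses, was unmarked in the conservative list, with its nearest summit at -1884 bp. It nevertheless had a summit in the thresholded lists of both replicates, and it was marked in the authors' other thresholded list for both samples. Its strongest ranked peaks within 500 bp had signals of 51.8 at -100 bp in replicate 1 and 29.2 at 341 bp in replicate 2. These are at different places, but they need not be the thresholded peaks, whose places were not compared. mir-239b was the only other unmarked gene with a thresholded peak, in replicate 1. Among the marked genes, mir-235, which holds larvae in nutritional arrest, had a signal of 67.5 at -19 bp and was in neither replicate's list.

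Gene names give a rough order of discovery, and a division by name was chosen after the values were seen. Of the 109 genes named let, lin, lsy or mir with a number under 300, 29 (26.6%, Wilson interval 19.2 to 35.6) were marked, with 18.3% in each replicate. Of the 152 others, 14 (9.21%, 5.57 to 14.9) were marked, with 7.89% and 8.55% in replicates 1 and 2. The older names were above the share of all genes and of protein-coding genes in each of the 3 lists. The later-named genes lay between those shares in the conservative list and above both in each replicate.

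Summits lay mostly upstream of the hairpin. The nearest summit of the 43 genes lay at a median of -217 bp, with quartiles of -309 and -49 and a range of -494 to 432 bp, and 35 of the 43 (81.4%) were upstream. The replicates gave medians of -197.5 bp (25 of 32 upstream) and -207 bp (25 of 33). At marked protein-coding genes 85.98% of nearest summits were upstream, with a median of -173 bp from the gene start. In bins of 250 bp, 21 microRNA genes (8.05%) had a summit from -500 to -251 bp and 17 (6.51%) from -250 to -1 bp. These are counts of genes, so a summit shared within a cluster counts for each gene. The farther bin holds mir-37, mir-38, mir-43, mir-44 and mir-55 by a summit shared with the first member of their cluster, and the nearer bin holds mir-36. Without these later members the farther bin had no lead over the nearer one. The other bins out to 2500 bp held from 2 to 10 genes each. For protein-coding genes the fullest bin was the one next to the start (5.42%), with 3.26% in the bin before it. A conservative peak overlapped the annotated gene at 15 microRNA genes, one of them let-7, where it overlaps the primary transcript but not the hairpin, and the nearest summit lay inside the gene at 4 of the marked genes.

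**Figure D3:**
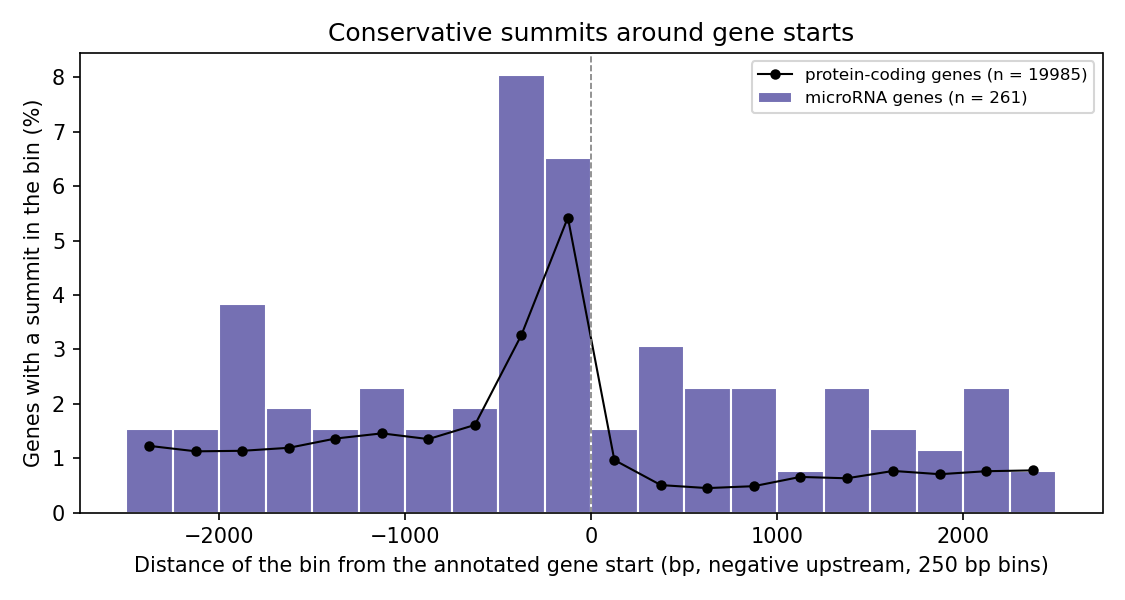
Share of genes with a conservative summit in each 250 bp bin around the annotated start (percent of genes, vertical axis) against distance from the start (bp, negative upstream), for 261 microRNA genes (bars) and 19985 protein-coding genes (line). The tallest microRNA bar is the bin from -500 to -251 bp at 8.05%, and the line peaks in the bin next to the start at 5.42%. A summit shared by clustered genes counts for each of them, and without the later cluster members the tallest bar has no lead over the next bin.

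By genomic context, the share was higher for hairpins in an intron on the host's strand than for intergenic ones under the 500 bp rule. Of 152 intergenic genes, which overlap no protein-coding gene, 17 (11.2%, Wilson interval 7.10 to 17.2) were marked, with 13 and 12 in replicates 1 and 2. Of 68 genes in an intron on the host's strand, 17 (25%, 16.2 to 36.4) were marked, with 14 and 16 in the replicates. The replicate shares were 8.22% ± 0.465 (SD, n = 2) for intergenic and 22.1% ± 2.08 (SD, n = 2) for intronic genes, and both replicate shares of intronic genes were above both of intergenic genes. Of 33 genes antisense to a protein-coding gene, 9 (27.3%, 15.1 to 44.2) were marked, with 5 in each replicate. Of these 9, 7 belong to the mir-35 and mir-54 clusters, and among antisense genes outside clusters 2 of 21 were marked. None of the 8 genes whose annotated span overlaps an exon on the same strand was marked, for which the upper Wilson bound is 32.4%. One of the 8 is let-7, placed there by its long primary transcript, which overlaps C05G5.7. The let-7 hairpin lies upstream of C05G5.7, whose start is 491 bp downstream of the hairpin's 5' end. By its hairpin let-7 would be marked, so the count of none depends on the annotated span. The gap between intronic and intergenic genes depended on distance. With a summit within 250 bp the shares were 8.82% and 7.89% (6 of 68 and 12 of 152), and where the peak had to overlap the gene the order turned, with 4.41% and 5.92% (3 and 9 genes).

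**Figure D4:**
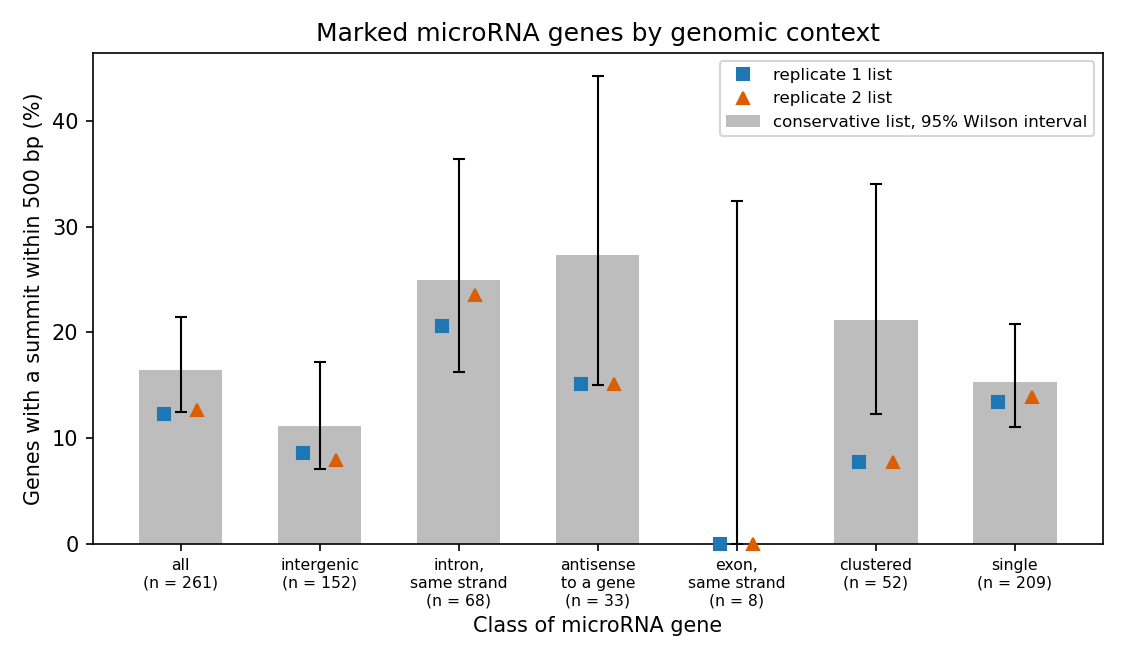
Percent of microRNA genes with a summit within 500 bp, by class, as bars for the conservative list with 95% Wilson intervals (counting error over genes), squares for replicate 1 and triangles for replicate 2. Intronic genes on the host's strand stand at 25% and intergenic genes at 11.2%, while clustered genes fall from 21.2% in the conservative list to 7.69% in each replicate.

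The intronic peaks were rarely at the start of the host. The 17 marked intronic genes were mir-2, mir-71, lin-4, mir-8192, mir-2216, mir-4929, mir-229, mir-2214, mir-90, mir-58a, mir-4920, mir-124, mir-253, mir-87, mir-82, mir-62 and mir-55b. Their starts lay a median of 3603 bp from the host's start. For 16 of the 17 the summit was inside the host gene, and only for mir-253 (host F44E7.5) and mir-4920 (host sph-1) was it within 500 bp of the host's start. Some hosts were marked at their own start: 8 of the 17 marked genes and 14 of all 68 intronic genes had such a host. Beside this, 9.78% of all protein-coding genes were marked in the conservative list. For mir-253 and mir-4920, which are among the 8, the microRNA gene's own strongest summit marked the host's start. The ppfr-1 gene, host of mir-2 and mir-71, was marked by another peak and counts for both. Its start lay 17117 and 9962 bp away from the hairpins.

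Clustered genes were marked more often than single genes in the conservative list and less often in the replicates. A gene was called clustered when another microRNA gene lay within 1000 bp on the same strand, which gave 52 genes in 18 clusters. Of the 52, 11 (21.2%, Wilson interval 12.2 to 34.0) were marked, against 32 of 209 single genes (15.3%, 11.1 to 20.8). In each replicate 4 clustered genes were marked, 7.69%, against 28 and 29 single genes (13.4% and 13.9%). The order of the classes thus turned between the conservative list and the replicates, and the 7 genes of the mir-35 and mir-42 clusters account for the difference in count.

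In all 4 clusters with a marked gene the first member, the one at the 5' end, was among the marked. These were mir-35 to mir-41 with 4 of 7 members marked, mir-42 to mir-44 and mir-54 to mir-56 with all 3, and the cluster of mir-229, mir-64, mir-65 and mir-66, in an intron of gcn-1, with mir-229 alone. The mir-229 summit lay at -272 bp with a signal of 178, 64.1 in replicate 1 and 96.4 in replicate 2, and at -668 to -928 bp from the other members. Over all clusters, 4 of 18 first members and 7 of 34 later members were marked. In the other 14 clusters no gene was marked.

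Nearby protein-coding starts were present at few of the marked genes. Of 38 microRNA genes whose start lay within 500 bp of a protein-coding start, 7 (18.4%, Wilson interval 9.22 to 33.4) were marked, against 36 of the 223 others (16.1%, 11.9 to 21.5). Measured from the strongest summit, 6 marked genes had a protein-coding start within 500 bp: mir-5549, mir-1824, mir-253, mir-4920, mir-77 and mir-4934. The start nearest to the mir-77 summit was that of srh-70, and for mir-4934 it was mtr-4. mir-800 is the seventh gene, with such a start near its own start but not near its summit. No marked summit lay within 500 bp of a tRNA gene, and the 4 microRNA genes near a tRNA gene, mir-237, mir-1819, mir-1829c and mir-2212, were unmarked. That left 37 marked genes with neither. For 22 of the 43 genes, at 16 distinct summits, the start of another non-coding gene lay within 500 bp of the strongest summit. MicroRNA, tRNA and piRNA genes were left out of this count, and no such share at other summits is given beside it.

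The chromosomes differed most in the conservative list. On chromosome II, 15 of 49 genes (30.6%, Wilson interval 19.5 to 44.5) were marked, on III 6 of 27, on IV 6 of 50, on V 4 of 28, on I 5 of 33 and on X 7 of 74 (9.46%, 4.66 to 18.3). In the replicates chromosome II had 7 marked genes each (14.3%), since the mir-35 and mir-42 clusters lie there, and chromosome III had the highest share with 6 genes each (22.2%). The lead of chromosome II was therefore not present in either replicate. No share of all genes by chromosome is given beside these counts. It cannot be told from them whether a chromosome differs for microRNA genes only or for genes of all types.

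Many unmarked genes had peaks below the thresholds. The ranked lists, which hold 50642 peaks in replicate 1 and 46532 in replicate 2 with no threshold on IDR, had a summit within 500 bp of 51.3% and 53.6% of microRNA genes, against 40.4% and 38% of protein-coding genes. Of the 218 unmarked microRNA genes, 91 had such a peak in replicate 1, 97 in replicate 2 and 72 in both, and 102 had one in neither. These peaks passed no threshold on IDR and were not counted as sites.

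The bases under the summits at microRNA genes were rich in G and C. In a window of 101 bp centred on each of the 41 summits the median GC content was 54.5%, against 39.1% in windows of the same length 500 bp to either side. At the 4236 other summits of the list it was 48.5%, against 35.1% in their flanks. Windows at 7 summits are printed, on the strand of the hairpin, chosen because they belong to the families above. Capitals mark GAGAG or its complement CTCTC, with overlapping matches joined. They are taken from the RefSeq genome (WBcel235) at chrX:14744632-14744732 for let-7, chrII:5901827-5901927 for lin-4, chrV:14366685-14366785 for mir-241, chrV:14364629-14364729 for mir-48, chrX:13145323-13145423 for mir-54 and mir-55, chrIII:8865512-8865612 for mir-80 and chrII:11537417-11537517 for mir-35.
let-7 summit: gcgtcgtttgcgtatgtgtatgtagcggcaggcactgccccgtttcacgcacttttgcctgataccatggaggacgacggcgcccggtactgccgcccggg
lin-4 summit: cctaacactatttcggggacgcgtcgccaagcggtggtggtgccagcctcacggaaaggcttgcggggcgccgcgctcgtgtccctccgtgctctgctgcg
mir-241 summit: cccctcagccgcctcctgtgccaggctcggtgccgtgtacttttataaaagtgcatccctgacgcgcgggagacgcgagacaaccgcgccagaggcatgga
mir-48 summit: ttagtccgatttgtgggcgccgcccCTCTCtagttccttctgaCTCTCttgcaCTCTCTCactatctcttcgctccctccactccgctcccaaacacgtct
mir-54 and mir-55 summit: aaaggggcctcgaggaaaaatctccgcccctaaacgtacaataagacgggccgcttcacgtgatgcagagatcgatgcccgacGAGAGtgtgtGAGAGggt
mir-80 summit: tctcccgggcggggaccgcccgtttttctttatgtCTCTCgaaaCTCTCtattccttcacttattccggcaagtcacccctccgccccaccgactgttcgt
mir-35 summit: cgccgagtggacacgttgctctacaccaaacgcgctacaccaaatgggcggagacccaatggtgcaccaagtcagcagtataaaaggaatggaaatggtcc

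The windows at mir-48, mir-54 and mir-80 held GAGAG or CTCTC more than once, and those at let-7, lin-4, mir-241 and mir-35 did not hold it. Over the 41 summits, 24 windows (58.5%) held GAGAG on either strand, against 7.32% of their flanks, 44.5% of the windows at other summits and 13.3% of the flanks of those. The string was picked after the windows were seen, from 12 searched on both strands. Of the 12, 7 were found more often at microRNA summits than in the flanks, and 9 at other summits. CGCG was in 51.2% of windows against 7.32% of flanks, and in 35.0% of the windows at other summits against 10.4% of their flanks. TATAAA, a form of the TATA box, was in 7.32% of windows and 8.54% of flanks. GAGAG and CGCG were thus frequent at summits of both kinds, and a match is a description of letters only.

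Genes listed for microRNA processing, microRNA action and the heterochronic pathway were examined by the same rule, in 4 lists with 45 protein-coding genes in all. Of the 45, 13 (28.9%, Wilson interval 17.7 to 43.4) were marked, with 8 in replicate 1 and 11 in replicate 2. The shares of all protein-coding genes given above were 9.78%, 6.05% and 7.3%. These lists too were chosen with earlier results of these data known, so the shares are a description only. None of the 7 genes listed under processing was marked, among them drsh-1 (Drosha), pash-1 (Pasha) and dcr-1 (Dicer), the genes of the cutting steps described above. The list is wider than these steps, and xrn-1 is among its other members. Of the 11 Argonaute and silencing genes, 4 were marked. These were vig-1 (signal 342), hrpk-1 (265), tsn-1 (119.6) and alg-2 (70.7), of which vig-1 and tsn-1 encode proteins of the silencing complex and alg-2 an Argonaute. alg-1, the other main microRNA Argonaute, was not. Of the 11 genes of deadenylation and decapping, which act on silenced messages, 6 were marked: ntl-2 (327), panl-3 (198), ccr-4 (124), edc-4 (94.5), pab-1 (76.2) and ccf-1 (74.1). ntl-2, ccr-4 and ccf-1 encode subunits of the CCR4-NOT deadenylase, and pab-1 the poly(A) binding protein. In the replicates' own lists the counts were lower, with 3 of the 11 deadenylation and decapping genes in replicate 1 and 4 in replicate 2, and ccf-1 and pab-1 in neither. Of the silencing genes 2 were marked in replicate 1 and 4 in replicate 2.

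Of 16 heterochronic targets and regulators, 3 were marked, with the same count in each replicate. lin-14, the first target found for lin-4, had its summit at -147 bp with a signal of 168, 71.6 in replicate 1 and 99.3 in replicate 2. lin-66 had 382 at -366 bp, and puf-9, which encodes a Pumilio protein, had 529 at -291 bp, with 239.4 in replicate 1 and 297 in replicate 2. The let-7 targets lin-41, hbl-1 and daf-12 were unmarked, as was lin-28. In the heterochronic pathway the conservative list thus held lin-4 and lin-14, a microRNA and its target, and mir-48 and mir-241 without their target hbl-1.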

How the data were processed

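The data are peak lists from chromatin immunoprecipitation and sequencing in 2 biological replicates of 1 group. Per the deposited file listing, alignments of both replicates and of a control, on ce11, went into them. Which aligner and peak caller were used is not given in the sources used here. A score, which the authors scaled from the IDR, accompanies each peak, and every peak of the conservative list has a score of at least 830. The signal is the authors' deposited enrichment, of unstated scale, and was used to describe and rank peaks within a list. The −log10 of the q-value and the −log10 of the global IDR were also deposited by the authors, as was the summit offset, which was turned into a 1-based position. Read counts are not part of these lists, so depth is unknown. In the ranked list of the series, 8 columns of per-replicate values were not used.

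Genes came from Ensembl release 115 and sequences from RefSeq, both WBcel235, the same genome as ce11. The start of a gene was its outermost 5' end in the annotation. Context was assigned in the order exon, intron, antisense, intergenic. Where Ensembl names 2 genes alike, or let-7 by a registry number, the RefSeq symbol was used. Seeds are bases 2 to 8. The value of a replicate is its strongest overlapping peak, from the thresholded list or else the ranked list. Flanks are windows 500 bp from the summit on either side.

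The members, gene lists and rules were chosen with earlier results of these data known. Named genes are all marked microRNA genes, the 15 with the highest signal in full, listed microRNAs with up to 8 unmarked, and the marked members of 4 pathway lists with up to 4 unmarked ones per list. With 1 group no test was made. Intervals are 95% Wilson intervals. Alternatives were the other thresholded list, the stronger peaks, limits on IDR and q-value, each replicate alone, other distances, anchors and overlaps, merged peaks and a wider cluster gap. The functions were tested on simulated data. Python 3.11.15, NumPy 2.4.6, SciPy 1.17.1 and Matplotlib 3.10.9 were used.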

Additional observations from a re-analysis of the deposited data

How the results depend on the processing

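Of 88 values under alternative settings, 62 stayed close to the main value, meaning within 1.5 times for a count or within the SD between replicates (6.72 bp) for the median position. The other 26 moved, and the median position stayed upstream in every setting. All 43 genes stayed marked with peaks merged and with the hairpin as the start. They also stayed at 1000 bp and with a global IDR of at most 0.01, but these 2 settings could lose none. The wider distance only adds genes, and every peak of the list already met that IDR limit. The values under the IDR limit are thus among the 62 by construction. With the other thresholded list 31 genes stayed, with 32 in the list of replicate 2 and 30 in that of replicate 1. The total of 43 moved to 28 with the stronger peaks by signal, 21 at 250 bp and 15 where the peak had to overlap the gene. In the same order, intergenic genes (17) moved to 10 and 9 with the stronger peaks and the overlap, intronic genes (17) to 6 and 3 at 250 bp and with the overlap, and single genes (32) to 18 and 14 at 250 bp and with the overlap. Marked genes without a neighbour (37) moved to 18 at 250 bp, 12 with the overlap, and 20 with 250 bp for the neighbours as well. Clustered genes (11) depended most on the setting. They moved to 5 with the other list, 4 with the stronger peaks and 4 with a q-value of at most 0.05. With replicate 1 left out they moved to 4, and with replicate 2 left out also to 4. They moved to 3 at 250 bp, 20 at 1000 bp, 1 with the overlap and 18 with a cluster gap of 10000 bp. The median position (-217 bp) moved to -195 with the other list, -127 at 250 bp and -19 with the overlap. With replicate 1 left out it moved to -207, and with replicate 2 left out to -197.5. The cause of these moves was not tested beyond the settings' own construction. Depth is unknown, so an unmarked gene may lie below detection.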
